A study of Mus musculus with 35 samples.

Results

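The vesicular glutamate transporters Slc17a7 (VGLUT1) and Slc17a6 (VGLUT2) were examined in tissue punches of hippocampus and amygdala from A/J and C57BL/6J mice. The members were taken as every probe whose platform gene symbol is Slc17a7 or Slc17a6. That gave 2 of the 15967 genes named on the Illumina MouseRef-8 array, each with 1 probe. The mice were test-naive males of 3 to 4 months from these 2 inbred strains, with no transgene or treatment. The hippocampus was measured on 9 arrays of A/J and 9 of C57BL/6J, the amygdala on 8 of A/J and 9 of C57BL/6J (35 arrays together), and each array held the RNA of an individual mouse. The labels do not tie a hippocampus array to an amygdala array of the same animal. A punch takes all cells at its site, so fewer cells of a type and less RNA per cell cannot be told apart in any value below.

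Neurons that release glutamate first load it into synaptic vesicles, and the transporters that do so are proteins of the SLC17 family. They take up glutamate along the electrochemical gradient that the vacuolar proton ATPase builds across the vesicle membrane. Slc17a7 is the main form in the principal neurons of cortex and hippocampus and in the basolateral nuclei of the amygdala, whereas Slc17a6 is the main form in thalamus, hypothalamus and brainstem. A further form, Slc17a8 (VGLUT3), is used by scattered neurons that often release another transmitter as well. Together, the first 2 forms serve as markers of which glutamatergic cells a piece of brain contains.

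Both genes lie on chromosome 7 of the mouse genome. In the RefSeq annotation of GRCm38.p6, Slc17a7 spans chr7:45163921-45176139 and Slc17a6 spans chr7:51621830-51671126, both on the plus strand. The 250 bases before each annotated start are shown because the 2 genes do a like job in different neurons, and the letters at their starts differ. Capitals mark the GC box GGGCGG on either strand, the classical binding sequence of Sp factors.

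Slc17a7, chr7:45163671-45163920: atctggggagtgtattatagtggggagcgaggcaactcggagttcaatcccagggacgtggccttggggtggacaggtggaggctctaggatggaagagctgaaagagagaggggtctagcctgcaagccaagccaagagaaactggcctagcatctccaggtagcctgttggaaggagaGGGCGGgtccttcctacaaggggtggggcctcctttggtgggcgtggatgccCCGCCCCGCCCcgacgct

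Slc17a6, chr7:51621580-51621829: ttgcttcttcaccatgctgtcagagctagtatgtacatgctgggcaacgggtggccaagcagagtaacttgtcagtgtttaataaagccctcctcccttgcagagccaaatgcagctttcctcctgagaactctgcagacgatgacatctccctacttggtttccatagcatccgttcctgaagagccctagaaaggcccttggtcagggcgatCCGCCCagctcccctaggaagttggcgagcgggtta

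The Slc17a7 sequence held 3 GC boxes and had a GC content of 61.2%, and the Slc17a6 sequence held 1 GC box and had a GC content of 53.2%. The median GC content of all 32851 RefSeq promoters of the same table was 52.4%, and 32.7% of these held at least 1 GC box. A TATAAA sequence, which 12.4% of all promoters held, was in neither window. RefSeq also gives Slc17a6 a second start inside the gene, whose upstream 250 bases had a GC content of 41.2% and no GC box. These matches describe the letters and do not show binding.

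The number of probes detected per array (detection p under 0.01) ran from 6099 to 11039, and its ranges overlapped among the 4 groups. Both members were detected on 35 of 35 arrays. Values are log2 signals after background correction and quantile normalization (neqc in limma), and the 4 group means were estimated together in a single limma model, with Benjamini-Hochberg adjustment over 10408 tested probes and a threshold of 0.01. Over all arrays the mean log2 level was 10.79 for Slc17a7, above that of 93.1% of the tested probes, and 10.41 for Slc17a6, above that of 90.8%. Signals of different probes cannot be read as relative amounts of RNA, so these ranks describe signal only, and only differences between groups are read. Sums over several probes below are likewise read only between groups or arrays. Within groups Slc17a7 varied more than most genes. Its pooled within-group SD was 0.92 on the log2 scale, larger than that of 95.2% of the tested probes, and that of Slc17a6 was 0.66, larger than that of 83.6%, against a median of 0.44 over all tested probes.

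Slc17a7 was higher in hippocampus than in amygdala in both strains. In A/J hippocampus its log2 level ran from 10.92 to 12.81 with a median of 12.05, against 7.11 to 9.73 with a median of 8.53 in A/J amygdala. The 9 hippocampus arrays of A/J all lay above the 8 amygdala arrays. In C57BL/6J hippocampus it ran from 11.46 to 13.36 with a median of 12.30, against 7.68 to 11.64 with a median of 10.02 in C57BL/6J amygdala. Here 6 of 9 hippocampus arrays lay above every amygdala array, and the highest amygdala arrays reached into the hippocampal range. The background-subtracted signals, before normalization, gave the same order in A/J, with 2326 to 9478 in hippocampus and 199.2 to 721.4 in amygdala. In C57BL/6J these signals overlapped, with 1574.2 to 11312.3 in hippocampus and 361.7 to 2162.9 in amygdala.

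Averaged over the strains, the region difference of Slc17a7 was 2.86 on the log2 scale (SE 0.30, 95% confidence interval 2.26 to 3.46), or 7.26-fold, with an adjusted p of 1.1e-09 in limma. It was the tenth largest of the 10408 differences toward hippocampus (rank 10). Of all tested probes, 12.2% passed the threshold by region, 6.42% higher and 5.76% lower in hippocampus. The study placed this Slc17a7 probe in a co-expression module that it built from these same arrays and that separates the regions, so the size of the region difference is not independent evidence. Within A/J the difference was 3.46 (SE 0.42, 11.0-fold, adjusted p = 1e-07 in limma), where 8.63% of probes passed. Within C57BL/6J it was 2.26 (SE 0.41, 4.78-fold, adjusted p = 0.00012 in limma), where 6.1% passed.

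**Figure D1:**
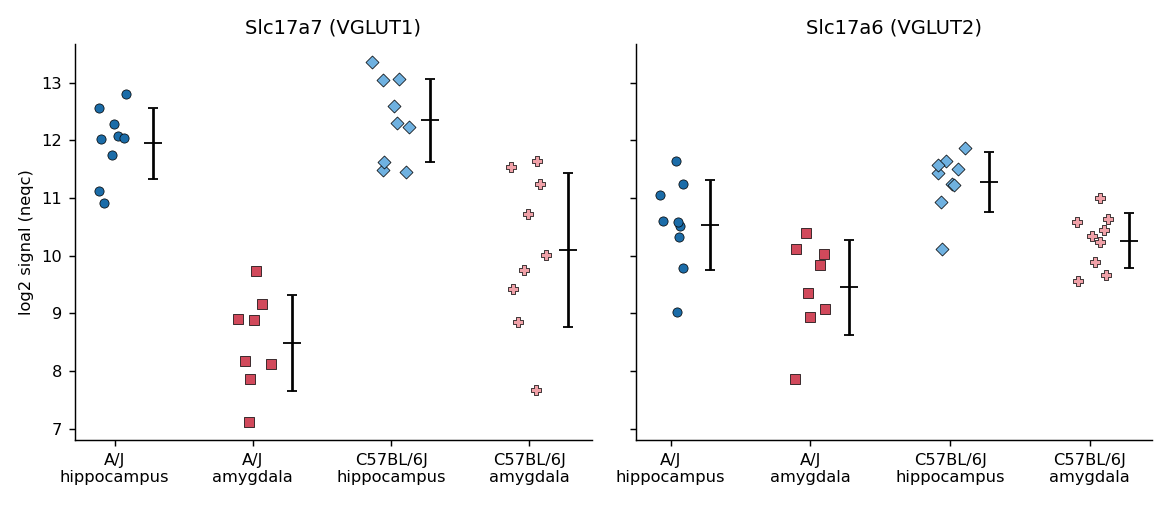
Log2 signal (neqc) of the Slc17a7 probe (left) and the Slc17a6 probe (right) on each array, by strain and region. Points are arrays and bars are the group mean ± SD. The A/J hippocampus arrays lie between 10.92 and 12.81 for Slc17a7, all above the A/J amygdala arrays, whereas hippocampus and amygdala overlap for Slc17a6.

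Slc17a6 was also higher in hippocampus, by a smaller amount and with overlap in both strains. In A/J hippocampus its log2 level ran from 9.03 to 11.65 with a median of 10.58, against 7.86 to 10.40 with a median of 9.60 in A/J amygdala. Of the 9 A/J hippocampus arrays, 6 lay above every A/J amygdala array, and the lowest A/J hippocampus array, at 9.03, had 2 amygdala arrays below it. In C57BL/6J hippocampus it ran from 10.11 to 11.86 with a median of 11.44, against 9.56 to 11.01 with a median of 10.35 in C57BL/6J amygdala. There, 7 of 9 hippocampus arrays lay above every amygdala array.

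The region difference of Slc17a6, averaged over the strains, was 1.05 on the log2 scale (SE 0.22, 95% confidence interval 0.61 to 1.49), or 2.07-fold, with an adjusted p of 0.00034 in limma. It took rank 204 of 10408 toward hippocampus. Within a single strain the estimate was of like size but did not pass the threshold, with 1.08 (SE 0.31, adjusted p = 0.0143 in limma) in A/J and 1.02 (SE 0.30, adjusted p = 0.023 in limma) in C57BL/6J. It was also past the threshold in neither chip lot alone, with 0.74 (SE 0.24, adjusted p = 0.0568 in limma) in lot 1 and 1.16 (SE 0.37, adjusted p = 0.0951 in limma) in lot 2. A lot here is a set of chips whose IDs begin alike, since the labels name none.

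The arrays were spread over 11 chips, and 10 of these held both regions. Slc17a7 was higher in hippocampus on 10 of the 10 chips, with differences from 1.78 to 3.94 and a median of 2.97 on the log2 scale. Slc17a6 was higher in hippocampus on 9 of the 10, with differences from -0.09 to 2.50 and a median of 1.23. These are differences of chip means, in which the strains on a chip were not balanced.

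**Figure D2:**
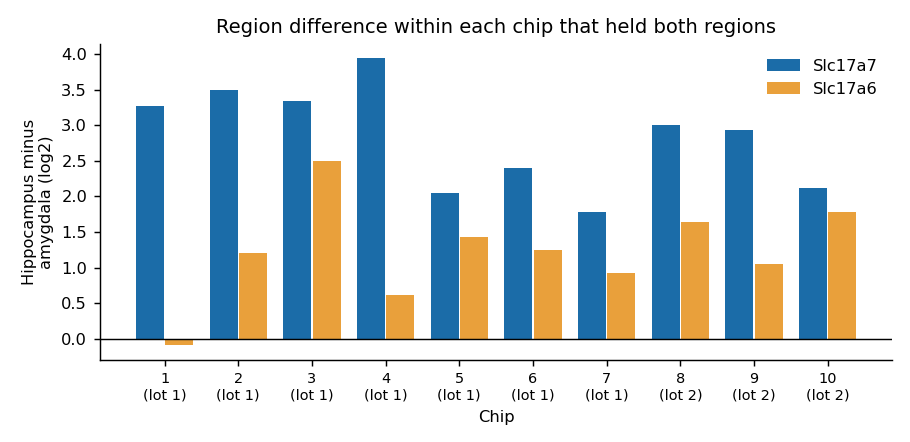
Hippocampus minus amygdala difference in mean log2 signal within each of the 10 chips that held both regions, for Slc17a7 and Slc17a6; lots are chips whose IDs begin alike. The bars run from 1.78 to 3.94 for Slc17a7 and from -0.09 to 2.50 for Slc17a6.

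By strain, both transporters averaged lower in A/J, and neither difference passed the threshold. The strain difference (A/J minus C57BL/6J, as the mean of both regions) was -1.0 on the log2 scale for Slc17a7 (SE 0.30, adjusted p = 0.0251 in limma) and -0.78 for Slc17a6 (SE 0.22, adjusted p = 0.0144 in limma). In the same comparison 5.89% of all tested probes passed. Among arrays of 1 chip and 1 region, both strains met 6 times, and A/J was lower in 5 of these for Slc17a7 (-3.38 to 0.13) and in 6 of 6 for Slc17a6 (-3.14 to -0.01). Within chip lot 1 the difference of Slc17a7 was -0.58 (adjusted p = 0.67 in limma) and within lot 2 it was -1.85 (adjusted p = 0.012). Making array medians equal in place of quantile normalization gave a median strain difference of 0.25 over all tested probes, against 0.05 with quantile normalization, and the transporters then stood at -0.73 and -0.52. Both calls depended on single arrays or on the treatment of the chips. Without C57BL/6J amygdala replicate 7, which had the lowest Slc17a7 of its group, the difference of Slc17a7 was -1.15 with an adjusted p of 0.00239 in limma, and with the chip as a random block that of Slc17a6 was -0.82 with an adjusted p of 0.00673. Slc17a6 also passed without A/J hippocampus replicate 1 (-0.85), A/J hippocampus replicate 6 (-0.83), A/J amygdala replicate 6 (-0.85) or C57BL/6J hippocampus replicate 2 (-0.85). The sequences of both probes were not analysed here, so a base difference between the strains under a probe was not tested.

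Ordered by mean, the 4 groups ran alike for both genes, with C57BL/6J hippocampus highest, then A/J hippocampus, then C57BL/6J amygdala and A/J amygdala lowest. For Slc17a7 the means were 11.95 ± 0.62 in A/J hippocampus and 12.35 ± 0.72 in C57BL/6J hippocampus, 8.49 ± 0.83 in A/J amygdala and 10.10 ± 1.33 in C57BL/6J amygdala (SD, n = 9, 9, 8 and 9). Of the neighbours in this order, A/J hippocampus and C57BL/6J amygdala differed past the threshold, by 1.86 (SE 0.41, adjusted p = 0.00088 in limma), in a comparison where 11.8% of probes passed. The difference of A/J from C57BL/6J was -0.40 in hippocampus (adjusted p = 0.895 in limma, with 3.38% of probes passing) and -1.61 in amygdala (adjusted p = 0.0133 in limma, with 4.02% passing).

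For Slc17a6 the means were 10.53 ± 0.78 in A/J hippocampus and 11.28 ± 0.52 in C57BL/6J hippocampus, 9.45 ± 0.82 in A/J amygdala and 10.26 ± 0.48 in C57BL/6J amygdala (SD, n = 9, 9, 8 and 9). No neighbours in this order differed past the threshold, with differences of -0.75 between A/J and C57BL/6J in hippocampus (95% confidence interval -1.36 to -0.14), 0.27 between A/J hippocampus and C57BL/6J amygdala (-0.34 to 0.88) and -0.81 between A/J and C57BL/6J in amygdala (-1.44 to -0.18). The ends did, with a difference of -1.83 for A/J amygdala minus C57BL/6J hippocampus (SE 0.31, adjusted p = 2.2e-05 in limma), in a comparison where 11.9% of probes passed.

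Whether the region difference depended on strain was tested with the interaction, that is by how much the region difference in A/J exceeded that in C57BL/6J. It was 1.21 for Slc17a7 (SE 0.59, 95% confidence interval 0.01 to 2.41), with an unadjusted p of 0.0487 and an adjusted p of 0.649 in limma. For Slc17a6 it was 0.06 (SE 0.43, adjusted p = 0.972 in limma), with an interval of -0.82 to 0.93. Over all tested probes 0.0673% (7 probes) passed. Both estimates moved with the set of values or arrays used. With the authors' variance-stabilized values the interaction of Slc17a7 was 0.46 (SE 0.46), and within lot 2 it was 1.89 (SE 0.76, adjusted p = 0.442 in limma). Under the other settings with all arrays the interaction of Slc17a7 was 1.13 to 1.27. That of Slc17a6 was -0.90 within lot 1 and 1.26 within lot 2.

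Set against each other on the same array, the balance of the 2 transporters lay further toward Slc17a7 in hippocampus. The log2 difference, Slc17a7 minus Slc17a6, was 1.25 ± 1.08 in hippocampus (SD, n = 18) and -0.54 ± 1.26 in amygdala (SD, n = 17). Its zero has no meaning, because 2 probes are compared, but a factor common to both genes on an array cancels. The change between regions was 1.79 on the log2 scale (SE 0.40), so the ratio was 3.46 times higher in hippocampus, with a permutation p of 0.00011 and an adjusted p of 0.00066 over 6 tests. On the 10 chips with both regions it was higher in hippocampus on 10, by 0.35 to 3.36.

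In A/J the per-array difference ran from -0.52 to 3.25 in hippocampus and from -2.73 to -0.01 in amygdala, and 8 of the 9 hippocampus arrays lay above every amygdala array. The mean change was 2.39 (exact permutation p = 0.00053, adjusted p = 0.0016 over the 6 tests). In C57BL/6J it ran from -0.15 to 2.96 in hippocampus and from -2.92 to 1.98 in amygdala, and the groups overlapped widely. There the mean change was 1.24 (exact permutation p = 0.0497, adjusted p = 0.0995). The strain difference in this balance was -0.15 over all arrays (permutation p = 0.767). It was 0.35 in hippocampus (exact permutation p = 0.499) and -0.80 in amygdala (exact permutation p = 0.204). It was 0.20 within lot 1 and -0.91 within lot 2 (exact permutation p = 0.776 and 0.265). The strain tests over all arrays and within lots shuffled strain across both regions, so the region change stayed in their spread. The value over all arrays also averages opposite signs in the 2 regions. Within chip lots the change between regions was 1.81 in lot 1 (exact permutation p = 0.004) and 1.74 in lot 2 (exact permutation p = 0.0113).

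**Figure D3:**
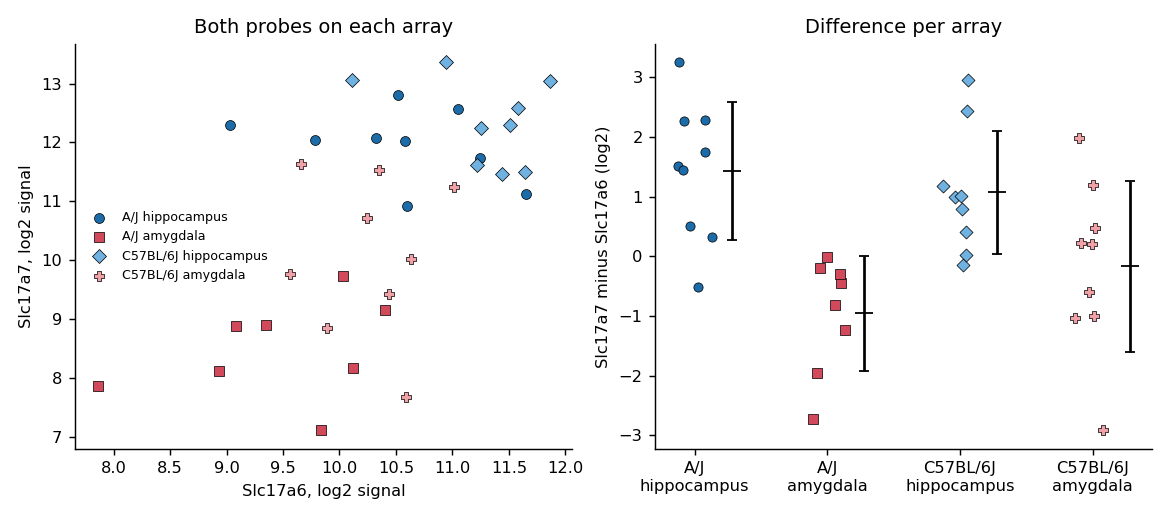
Left, log2 signal of Slc17a7 against that of Slc17a6 on each of the 35 arrays. Right, the per-array log2 difference Slc17a7 minus Slc17a6 by group, with the mean ± SD beside the points; the 8 A/J amygdala arrays all lie at -0.01 or below, and the 18 hippocampus arrays lie between -0.52 and 3.25.

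Within groups, no relation between the 2 transporters passed a threshold of 0.05. Pearson's r of Slc17a6 with Slc17a7 was -0.374 in hippocampus and 0.334 in amygdala of A/J, -0.378 in hippocampus and -0.0394 in amygdala of C57BL/6J, and Spearman's rho was -0.500, 0.524, -0.300 and -0.0833 in the same order. The exact permutation p of these r values lay between 0.323 and 0.919, and the adjusted p over 12 relations was 0.709 or higher. Against the number of detected probes, the strongest relation was in C57BL/6J amygdala, where Slc17a7 was lower on arrays that detected more probes (r = -0.786, exact permutation p = 0.0139, adjusted p = 0.167). Its rho was -0.700 (exact permutation p = 0.0433, adjusted p = 0.456), and leaving out the pair of arrays farthest from the median of detected probes gave r = -0.860.

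The cell type markers that move with the regions were read beside these results. Of 12 tested markers of cortical and hippocampal glutamatergic neurons, 10 were higher and 1 lower in hippocampus, with a median difference of 1.63 against 0.001 over all tested probes. Of all tested probes, 6.42% were higher and 5.76% lower. Emx1 (detected on 9 hippocampus and 0 amygdala arrays), Nptx1 (13 and 5) and Neurod1 (14 and 3, not past the threshold) met the filter for testing only through hippocampus. The 10 higher markers included C1ql2 (4.11), a synaptic protein of dentate granule cells, Neurod2 (4.04), a transcription factor of cortical and hippocampal projection neurons, and Camk2a (1.75), the kinase of excitatory synapses. The summed level of the 12 markers was 18100 to 35800 in hippocampus and 6370 to 11400 in amygdala. The exception was Wfs1, a protein of the endoplasmic reticulum, at -2.37. Of the 12 tested markers of GABAergic neurons, 8 were lower and 0 higher in hippocampus, against 5.76% and 6.42% of all tested probes. Their median difference was -1.02. The largest were those of Tac1 (-3.39), the precursor of substance P, and Drd1 (-3.19), a dopamine receptor, whereas Gad1 differed by -1.0. The 4 that did not pass were Dlx1 (-0.16), Dlx5 (0.13), Pvalb (-0.08) and Npy (-0.02). Penk (detected on 0 hippocampus and 13 amygdala arrays) and Drd2 (1 and 15) met the filter for testing only through amygdala.

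Markers of thalamic neurons were also higher in the hippocampus punches. Of 10 tested, 7 were higher and 0 lower, against 6.42% and 5.76% of all tested probes, with a median difference of 1.56. Tnnt1, a troponin, differed by 4.10, Rgs16, a regulator of G protein signalling, by 2.21, Ntng1, a netrin-like axon guidance protein, by 1.86, Prkcd, a protein kinase C, by 1.83, and Tcf7l2, a Wnt pathway transcription factor, by 1.53. The summed level of the 10 markers was 3210 to 13400 in hippocampus and 1400 to 3070 in amygdala. By group its median was 5130 in A/J hippocampus, 8760 in C57BL/6J hippocampus, 2450 in A/J amygdala and 2440 in C57BL/6J amygdala. Of 6 tested hypothalamic markers, 4 were lower in hippocampus, against 5.76% of all tested probes. Avp, which encodes vasopressin, was undetected on all 18 arrays of hippocampus and detected on 14 of 17 from amygdala. Testing needed detection on 8 or more arrays, so Avp entered the count only through amygdala. So did Oxt, detected on 2 and 12 arrays, and Nkx2-1, detected on 7 and 13, which did not pass the threshold. The filter therefore favoured a lower call for these genes. The part of these other cells in the region differences of Slc17a7 and Slc17a6 was not tested.

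Slc17a6 rose and fell with the thalamic markers from array to array inside 3 of the 4 groups. This relation was looked for after the values had been seen, as 1 of 16 between the 2 transporters, 2 marker sums and 4 groups. On the log2 scale, Pearson's r of Slc17a6 with the summed thalamic level was 0.794 in A/J hippocampus (exact permutation p = 0.0089, adjusted p = 0.0356), 0.966 in A/J amygdala (exact permutation p = 0.0003, adjusted p = 0.00476) and 0.926 in C57BL/6J hippocampus (exact permutation p = 0.001, adjusted p = 0.00802). Spearman's rho was 0.683, 0.881 and 0.900 in the same order, with adjusted exact permutation p of 0.157, 0.0441 and 0.0325. Leaving out the pair of arrays with the most extreme thalamic sums gave r of 0.881, 0.919 and 0.657. Centred within chip lots it was 0.861, 0.985 and 0.924. In C57BL/6J amygdala r was 0.367 (exact permutation p = 0.331, adjusted p = 0.532) and rho 0.267, with r = -0.0684 without the most extreme arrays and 0.186 centred within lots. When arrays were only scaled to 1 median, r was 0.733, 0.919 and 0.950 in the first 3 groups and 0.788 in C57BL/6J amygdala. A sum of linear values is weighted toward the probes with the highest signals, in amygdala Calb2 (mean log2 level 9.4 in A/J and 10.03 in C57BL/6J). With the mean of the log2 levels in place of the sum, r was 0.757, 0.946 and 0.961 in the first 3 groups and 0.0727 in C57BL/6J amygdala. With Tcf7l2 alone it was 0.779, 0.802, 0.75 and -0.24 in the same order.

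For Slc17a7 no relation with the thalamic markers passed. Its r with the thalamic sum was -0.0812 in hippocampus and 0.331 in amygdala of A/J, -0.160 in hippocampus and 0.564 in amygdala of C57BL/6J, with adjusted exact permutation p of 0.229 or higher. With array medians made equal, these 4 values were 0.0851, 0.356, 0.474 and -0.567, so 3 of them changed sign. With the cortical and hippocampal sum, its r was 0.738 in C57BL/6J hippocampus (exact permutation p = 0.0246, adjusted p = 0.0655) and 0.766 in C57BL/6J amygdala (exact permutation p = 0.0163, adjusted p = 0.0523), and rho was 0.833 (adjusted p = 0.0441, exact permutation) and 0.717 (adjusted p = 0.147). With the pair of most extreme arrays left out, these r were 0.598 and 0.483, and with array medians made equal they were 0.888 and -0.237, so the direction in C57BL/6J amygdala depended on the scaling. In the A/J groups r was 0.365 in hippocampus and -0.0455 in amygdala. Slc17a6 ran against that sum in A/J hippocampus, with r = -0.834 (exact permutation p = 0.00491, adjusted p = 0.0262), rho = -0.667 (adjusted p = 0.157) and r = -0.527 without the 2 farthest arrays. With array medians made equal in place of quantile normalization, that r was -0.127.

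**Figure D4:**
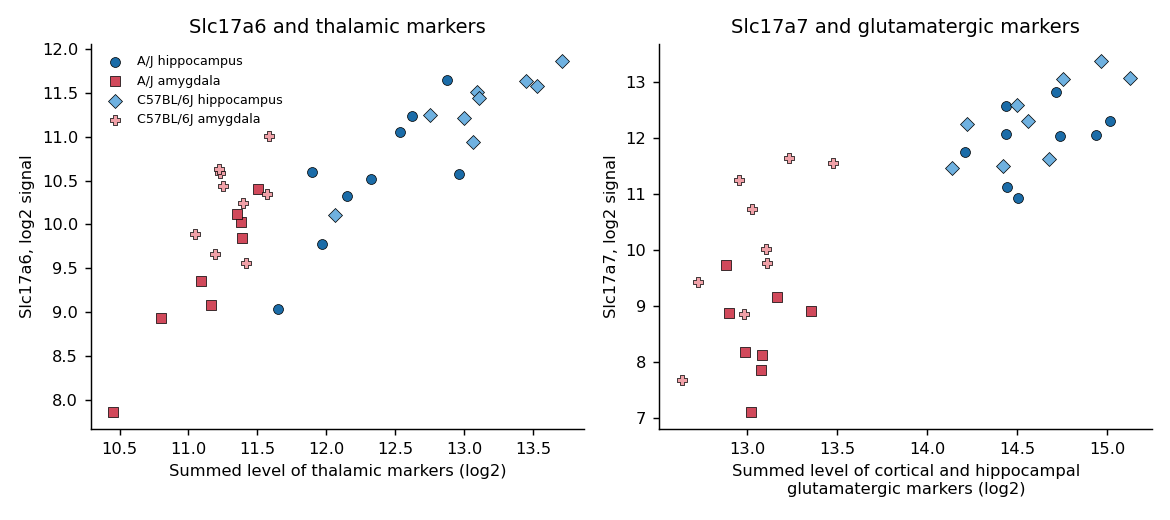
Left, log2 signal of Slc17a6 against the log2 summed level of 10 thalamic markers; right, log2 signal of Slc17a7 against the log2 summed level of 12 markers of cortical and hippocampal glutamatergic neurons, one point per array. Within A/J hippocampus, A/J amygdala and C57BL/6J hippocampus, Slc17a6 rises with the thalamic markers (r = 0.794, 0.966 and 0.926).

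The genes whose pattern was most like that of each member over the 35 arrays were different sets. Closest to Slc17a7 by Pearson's r were C2cd4a (0.956), Mas1 (0.911), an angiotensin peptide receptor, Cck (0.905), which encodes the neuropeptide cholecystokinin, Aqp11 (0.902), an aquaporin, and Galnt17 (0.892), a glycosyltransferase. Closest to Slc17a6 were Ntng1 (0.803), Vash2 (0.794), a vasohibin, Tcf7l2 (0.783), Vav3 (0.777), a guanine nucleotide exchange factor, and Egfem1 (0.773). Ntng1 and Tcf7l2 also stand on the thalamic list. These values hold the group differences as well as the spread between arrays. With the group means removed, C2cd4a (0.848), Cnih3 (0.843), an auxiliary subunit of AMPA receptors, Rhbdl1 (0.793), Slc38a7 (0.773), a glutamine transporter, and Rprm (0.763) were closest to Slc17a7, and Adcy8 (0.794), an adenylyl cyclase, Igsf1 (0.737), Syt9 (0.708), a synaptotagmin, Vash2 (0.707) and Mrvi1 (0.694) to Slc17a6. The r of the 2 transporters with each other was 0.563 over all arrays and -0.0616 with the group means removed.

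Of the rest of the SLC17 family, 7 genes were on the array and 1 was tested. Slc17a5 (sialin), the lysosomal sialic acid exporter, differed by 0.43 between regions (SE 0.13, adjusted p = 0.0189 in limma). The probe of Slc17a8, the further vesicular glutamate transporter of the family, was detected on 0 of 35 arrays. That gives no level for the gene, since the probes of Gad2, Nefl and Slc1a2, the main astrocytic glutamate transporter, which brain tissue expresses in abundance, were also detected on 0 of 35.

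Among the genes that supply and recycle glutamate, 2 of 10 tested were higher in hippocampus and 0 lower, with a median difference of 0.24, where 6.42% of all tested probes were higher. These were Slc38a5 (0.69, adjusted p = 0.00014 in limma), a glutamine transporter, and Slc1a1 (0.45, adjusted p = 0.00017 in limma), the neuronal plasma membrane glutamate transporter. With the authors' variance-stabilized values, whose scale need not equal that of neqc, the difference of Slc38a5 was 0.15 (adjusted p = 0.00083 in limma). Of 16 tested subunits and partners of the vacuolar proton ATPase, Atp6v0e2 was higher (0.47, adjusted p = 0.00644 in limma), 0 were lower, and the median difference was 0.08. This count of 1 in 16 is near the 6.42% of all tested probes, and with array medians made equal Atp6v0e2 did not pass (0.53, adjusted p = 0.062 in limma). By strain, 0 of the 10 and 0 of the 16 passed, against 5.89% of all tested probes.

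The other vesicular transporters went both ways by region. Of 4 tested, 1 was higher and 2 lower in hippocampus, against 6.42% and 5.76% of all tested probes. Slc32a1, which loads GABA and glycine, was lower in hippocampus, with a difference of -1.83 (SE 0.13, adjusted p = 7.5e-14 in limma), as was Slc18a3, which loads acetylcholine, with -1.30 (SE 0.17, adjusted p = 1.6e-07 in limma). On the authors' variance-stabilized scale the size for Slc18a3 was -0.07 (adjusted p = 1.1e-05 in limma). Its probe was detected on 6 hippocampus and 14 amygdala arrays, so it met the filter for testing only through amygdala and its size is uncertain. Sv2b, a synaptic vesicle glycoprotein, was higher by 0.94 (SE 0.19, adjusted p = 0.00019 in limma), and its relative Sv2a did not pass. By strain both vesicle glycoproteins were lower in A/J, Sv2a with a difference of -0.95 (SE 0.13, adjusted p = 8.7e-07 in limma) and Sv2b with -0.91 (SE 0.19, adjusted p = 0.00051 in limma). With array medians made equal Sv2a did not pass (-0.75, adjusted p = 0.0575 in limma) and Sv2b did (-0.72, adjusted p = 0.00621). A base difference between the strains under the Sv2a and Sv2b probes was not tested.

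**Figure D5:**
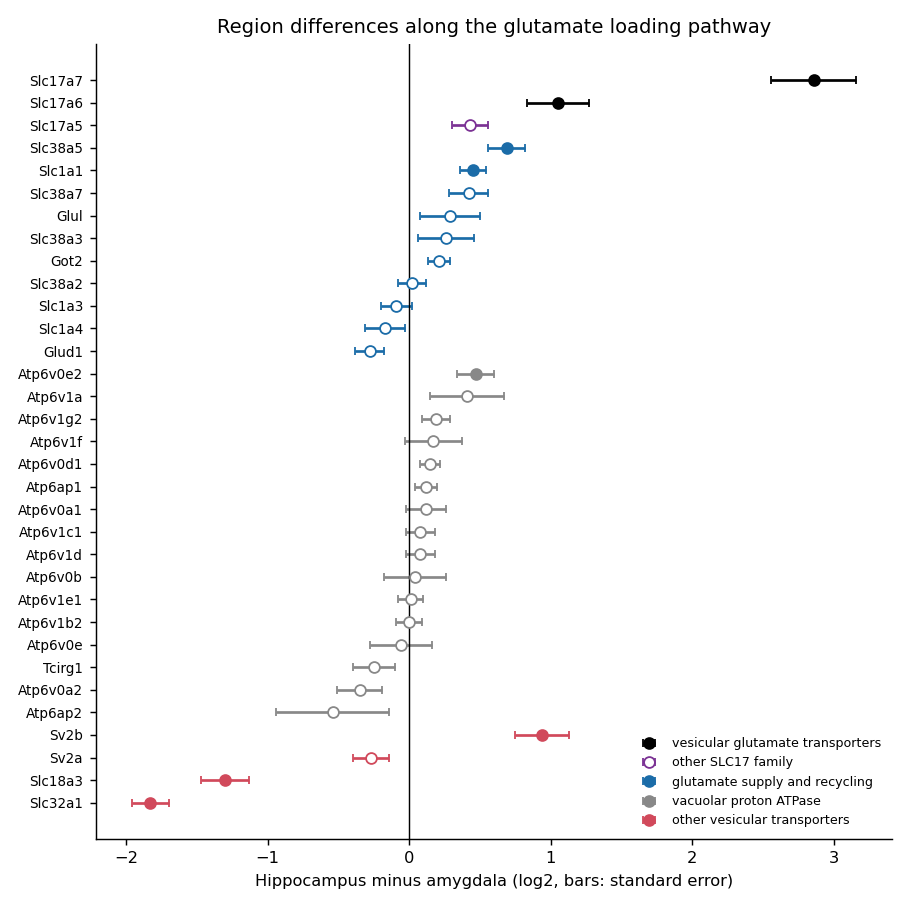
Hippocampus minus amygdala difference (log2) of Slc17a7, Slc17a6 and the tested genes of 4 lists along the loading of vesicles, with standard errors from limma. Filled points passed an adjusted p of 0.01; the 2 vesicular glutamate transporters lie at 2.86 and 1.05, whereas Slc32a1 lies at -1.83.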

How the data were processed

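Illumina MouseRef-8 arrays were hybridized with RNA of single mice. The authors extracted the deposited signals, linear intensities of 24620 probes with the mean of the negative control beads subtracted, with BeadStudio, and 31.0% of them are at or below 0. Each has a deposited detection score, 1 minus the detection p-value. A second deposited table holds the authors' log2 values of 24613 probes after the variance-stabilizing transformation and robust spline normalization of Lumi, and it served as an alternative. Here neqc (limma 3.58.1, R 4.3.3) was run on the signals, which fits normexp through the detection p-values, adds 16, quantile normalizes and takes log2. A probe was tested where 8 or more arrays detected it at p under 0.01 (10408 probes). The 4 group means were fitted in 1 model over 35 arrays, after a check of the script on simulated data. Region is hippocampus minus amygdala and strain A/J minus C57BL/6J. The balance of the members per array was tested with 100000 permutations or exactly. Gene names are those of the platform annotation, in which 20984 probes have 1 symbol, and positions and promoters are from RefSeq. In 4 pathway lists and 8 marker lists a gene stands for its tested probe with the highest mean, and a list's summed level is the sum of its linear neqc values. Named genes were the members, list genes and, for each member, the 5 genes with the highest r over 35 arrays and the 5 with the group means removed. Members and lists were chosen with earlier results of these data known. No array was left out, and no 2 arrays held identical values.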

Additional observations from a re-analysis of the deposited data

How the results depend on the processing

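The region difference of Slc17a7 kept its direction and its side of the threshold under 10 of 10 alternatives (lowest 2.13, with the authors' values) and without each of the 35 arrays (2.71 to 2.96). That of Slc17a6 did so under 8 of 10 and without each array (0.93 to 1.14), and was 0.74 within chip lot 1 and 1.16 within lot 2, where fewer arrays were fitted. The strain difference of Slc17a6 passed with the chip as a random block (-0.82), and leaving out 1 array gave -0.85 to -0.67 for Slc17a6 and -1.15 to -0.90 for Slc17a7. The interaction of Slc17a6, never past the threshold, changed sign with the authors' values (-0.19), with arrays scaled to a common median (-0.08), within lot 1 (-0.90) and without some arrays (-0.17 to 0.24), and was 1.26 within lot 2 and 0.45 with the chip as a random block. That of Slc17a7 was 1.01 to 1.51 without 1 array, 0.46 with the authors' values and 0.95 to 1.89 within lots. The region change of the per-array difference was 1.74 within lot 2, where its exact permutation p of 0.0113 was above 0.01, and 1.64 to 1.95 without 1 array. Its strain difference was 0.20 within lot 1, -0.91 within lot 2 and -0.35 to 0.04 without 1 array.

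Probes past the threshold by region numbered 1267, but 649 with arrays scaled to a common median, 679 within lot 1, 368 within lot 2 and 1183 to 1298 without 1 array. By strain they numbered 613, but 364, 315 and 241 under the same settings and 568 to 630 without 1 array. For the interaction they numbered 7, but 14 with the number of detected probes as a covariate, 1 within lot 1, 0 within lot 2 and 6 to 12 without 1 array (12 without A/J amygdala replicate 5, 11 without C57BL/6J amygdala replicate 7). With a common median, 0 proton ATPase genes passed by region and 1 other vesicular transporter by strain. Among the 12 relations of the transporters with each other and with detected probes, r changed sign under that scaling for Slc17a6 with Slc17a7 in C57BL/6J hippocampus (0.301), for detected probes with Slc17a7 in A/J amygdala (0.209) and for detected probes with Slc17a6 in A/J hippocampus (0.417), C57BL/6J hippocampus (0.462) and C57BL/6J amygdala (0.671), the last also when centred within lots (0.0407). Of the 16 relations with marker sums, 8 changed sign under it, 0 of them between Slc17a6 and the thalamic sum. No cause of these shifts was tested. No paired analysis was possible because the labels give no animal shared by a hippocampus and an amygdala array, and replicate numbers only follow the order of deposition.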

Other observations

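Among markers of other cells, 0 of 7 tested astrocyte genes and 0 of 6 tested microglia genes passed by region in limma, against 12.2% of all tested probes. Lists this short can hold 0 calls at that share, so no likeness of the regions is read from these counts. Of 8 tested oligodendrocyte genes, 6 were lower in hippocampus, against 5.76% of all tested probes. Among them were Mobp (-0.94, adjusted p = 2.7e-06 in limma) and Mag (-0.81, adjusted p = 4.6e-05), both proteins of myelin. Within A/J 5 of the 8 passed, against 8.63% of all tested probes, and within C57BL/6J 0 of 8, against 6.1%. The median differences were -1.05 and -0.38. The interaction passed for 0 of 8, so these counts do not establish a difference between the strains. Of 9 tested general neuronal genes, the synaptic vesicle protein gene Syn1 was higher in hippocampus (0.45, adjusted p = 0.00731 in limma). This count of 1 in 9 is near the 12.2% of all tested probes that passed by region. By strain, 2 of the 6 tested microglia genes passed, against 5.89% of all tested probes. These were the complement genes C1qb (-1.13, adjusted p = 2.9e-06 in limma) and C1qc (-0.93, adjusted p = 6.6e-05), which microglia express, both lower in A/J. The sequences of their probes were not analysed here, so a base difference between the strains under them was not tested.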
